A study of Mus musculus with 80 samples.

Results

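Lipids made or repacked in the liver leave it as lipoproteins, whose proteins are the apolipoproteins. The genes described here are those of the apolipoproteins Apoa1, Apoa2, Apoa4, Apoa5, Apob, Apoc2, Apoc3, Apoe and Apom, and Mttp, the microsomal triglyceride transfer protein. They were taken by symbol from the deposited table of gene counts, so that 10 of its 78275 rows are described. Their levels were read in livers of C57BL/6J mice, an inbred strain, of both sexes and 8 to 12 weeks old, all on a standard chow. All mice had spent 10 days in a light–dark cycle, and on day 11 they were in constant darkness. Control mice kept their food, whereas fasted mice had it taken away at circadian time (CT) 10. The fast was thus 2 h old at CT12 and 34 h old at CT44, and at CT8 the group labelled fasted was still fed. Livers were sampled every 4 h, with 2 males and 2 females for each treatment and time, in 80 libraries. Each library came from about 40 mg of the centre of the left lobe.

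Triglyceride leaves the hepatocyte as very-low-density lipoprotein (VLDL), which is built around 1 molecule of ApoB while Mttp passes lipid to it in the endoplasmic reticulum. The smaller apolipoproteins move between particles: ApoC2 activates lipoprotein lipase, ApoC3 slows the clearance of triglyceride, ApoA5 favours it, and ApoE is a ligand of the receptors that take remnants up. ApoA1 and ApoA2 are the main proteins of high-density lipoprotein (HDL), ApoM carries sphingosine 1-phosphate on HDL, and ApoA4 is found on HDL and on triglyceride-rich particles. During a fast, fatty acids released by adipose tissue reach the liver and are in part sent out again as VLDL.

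Gene counts lay between 25534901 and 59927771 per library, and the 10 genes together took 2.22% to 5.48% of them. Levels are given as CPM, counts scaled to the size of the library by TMM, and changes are log2 differences of fasted minus control. A change was called at an adjusted p under 0.05 in edgeR's quasi-likelihood test over all genes tested. Libraries are named by their titles, since other labels name another sex in 40 of them and another treatment in 40. By title, Xist, which is made from the inactive X chromosome, had at least 915 CPM in the 40 females and at most 2.05 CPM in the 40 males. Fgf21, a hormone of the fasted liver, had a median of 0.333 CPM in control and 8.11 CPM in fasted livers from CT12 on, and Srebf1, a driver of lipid synthesis, 423 and 42.5 CPM. In control CT8 female 2, 31.3% of the counts fell on a ribosomal RNA gene, against at most 4.88% elsewhere, and it held the lowest value of its group for 8 of the 10 genes. Hepatocyte markers were abundant, with a summed median of 82929.9 CPM in control and 88204 CPM in fasted livers. Several of these genes are also made in the small intestine, but of its 5 markers Cdh17, Sis, Alpi and Lct had a median of 0 CPM in either treatment, and the sum (24.4 to 59.9 CPM in control, 24.5 to 147 CPM in fasted livers) was that of Fabp2. Since these are bulk samples, fewer cells of a type and less RNA per cell cannot be told apart.

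Apoa1, Apoc3, Apoa4 and Apoa5 are neighbours within 43.3 kb of mouse chromosome 9. In GENCODE M21 on GRCm38, an older build than the one named in the submitters' notes, this stretch is chr9:46228580-46271919. Apoc2 and Apoe lie at the ends of another cluster on chromosome 7, at chr7:19671579-19699188, with Apoc4 and Apoc1 between them. Apoa2 is on chromosome 1, Mttp on 3, Apob on 12 and Apom on 17. The 4 genes with the largest rise in the mean fasting effect were Apoa4, Apoa1, Apoa5 and Mttp. The sequence before 1 listed start site of each is given here, from RefSeq on GRCm38.p6, in the direction of the gene. Of the 250 bases before the start, those inside an exon of a coding transcript in M21 were left out. Capitals mark the motifs found.
Apoa4, chr9:46240594-46240695, plus strand: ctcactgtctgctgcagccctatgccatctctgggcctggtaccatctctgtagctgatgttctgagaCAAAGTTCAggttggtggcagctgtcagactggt
Apoa1, chr9:46228380-46228579, plus strand: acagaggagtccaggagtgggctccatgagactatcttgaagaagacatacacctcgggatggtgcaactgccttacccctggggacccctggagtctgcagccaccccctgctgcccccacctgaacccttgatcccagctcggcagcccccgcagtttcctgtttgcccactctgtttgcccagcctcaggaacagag
Apoa5, chr9:46268358-46268607, plus strand: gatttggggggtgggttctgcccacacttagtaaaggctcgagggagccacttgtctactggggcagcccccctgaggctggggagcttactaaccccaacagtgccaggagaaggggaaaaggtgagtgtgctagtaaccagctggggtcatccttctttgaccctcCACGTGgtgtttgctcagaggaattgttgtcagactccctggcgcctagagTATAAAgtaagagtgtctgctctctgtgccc
Mttp, chr3:138143419-138143668, minus strand: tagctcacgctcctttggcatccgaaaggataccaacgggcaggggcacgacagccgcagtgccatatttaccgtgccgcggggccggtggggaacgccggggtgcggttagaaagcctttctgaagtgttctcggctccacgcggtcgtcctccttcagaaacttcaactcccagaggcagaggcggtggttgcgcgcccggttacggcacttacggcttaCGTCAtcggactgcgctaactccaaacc

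The motifs were searched on both strands and were settled after the letters of these promoters had been read. The Apoa4 stretch held CAAAGTNCA, the letters of an element bound by HNF4A, which 1.19% of the 32851 promoters of the table hold within 250 bases. A match is a description of the letters, and none says only that these letters are not in the window. The Apoa5 stretch held the E-box CACGTG, found in 6.02% of promoters and bound by the clock factors CLOCK and BMAL1, and a TATA box, TATAAA, found in 12.4%. In the Mttp stretch TGACG, part of the cyclic AMP response element, was found on the other strand, as in 17.8% of promoters. From chr3:138143448 on, this stretch lies inside Trmt10a, a gene on the opposite strand. In M21 Mttp spans chr3:138089854-138144968, so the stretch precedes a start inside that span. Which start of Mttp the liver uses was not tested. AGGTCA, the half-site of many nuclear receptors (14% of promoters), and GTAAACA, a forkhead element (3.17%), were not among the letters of the 4 stretches, and the Apoa1 stretch held none of the motifs. No entry for Apoc3 was found in the table, and 9 of the 10 genes matched.

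Per length of all annotated exons of a gene merged, Apoa2, Apoe and Apoa1 were the most abundant of the 10 in control livers. Apob and Mttp, which assemble VLDL, stood at ranks 5 and 9. The merged length can exceed that of the transcripts made in liver, so close ranks depend on this choice. As the median of the 40 control libraries, per kilobase of exon, Apoa2 stood at 7351 CPM, Apoe at 7089 CPM and Apoa1 at 4485 CPM. Apoc3 followed with 1152 CPM, Apob with 674 CPM and Apoa5 with 533 CPM. Within each of these trios the ranges of neighbours overlapped, whereas all values of Apoa1 were above all values of Apoc3. Apom had 197 CPM, Apoa4 113 CPM and Mttp 58.9 CPM per kilobase, with ranges that overlapped from one to the next and lay below that of Apoa5. In fasted livers from CT12 on, the median of Apoa4 was 1579 CPM per kilobase, which moved it from rank 8 to rank 4 of the 10. Apoc2 was last at 5.92 CPM per kilobase, a value that is uncertain for a reason given with that gene.

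**Figure D1:**
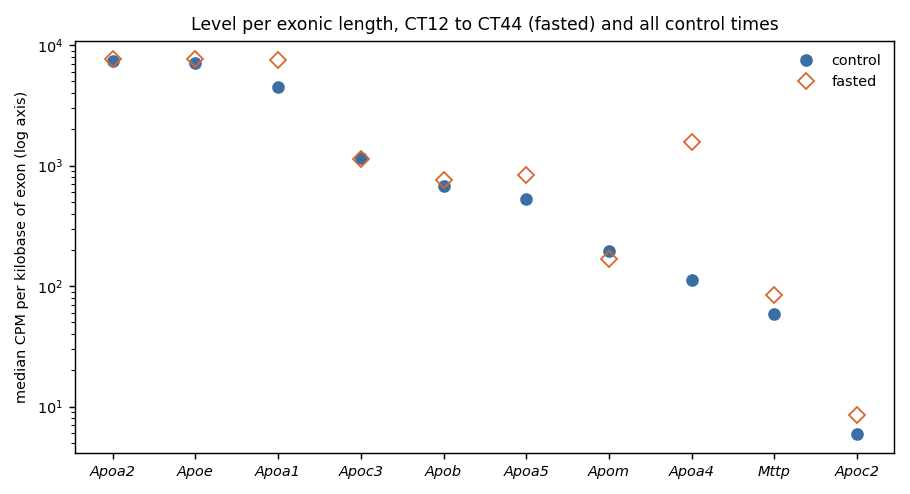
The median level of each gene in control (filled circles, 40 libraries) and fasted livers from CT12 to CT44 (open diamonds, 36 libraries), in CPM per kilobase of exon on a log axis, ordered by the control level. Apoa4 moves from 113 to 1579 CPM per kilobase, whereas the median of Apoc3 stays between 1136 and 1152.

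At CT8, before food was removed, 0 of the 10 genes differed between the groups in edgeR, DESeq2 or limma-voom, against 1.33% of all genes in edgeR. The differences lay between -0.07 and 0.26 on the log2 scale, and 2 genes, Apoa5 and Apoe, had an unadjusted p under 0.05. Averaged over CT12 to CT44, 6 of the 10 were called higher (all genes 29.5%) and 1, Apom, lower (all genes 32.9%). With 62.5% of 21187 genes called in one direction or the other, 7 of 10 is close to the background. In a fit of 12929 genes with at least 10 counts in every library, 9670 were called, 4725 of them higher. The median of the 10 differences was 0.34, and that of all genes -0.02. At CT8, with both groups still fed, these medians were 0.18 and 0.006, and at CT12 they were 0.10 and -0.0007.

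Apoa4, whose protein is carried on HDL and on triglyceride-rich particles, rose most of the 10. At CT8, control livers held 123 and 187 CPM in the males and 199 and 139 CPM in the females, and livers of the group labelled fasted 128 and 78.2 CPM in the males and 257 and 206 CPM in the females. At CT12 the fasted livers held 126 and 171 CPM in the males and 422 and 360.1 CPM in the females, and the control livers ranged from 142 to 322 CPM. The groups thus overlapped 2 h into the fast, and the difference was not called (0.23 ± 0.30 (SE), adjusted p = 0.832). At CT16 the fasted livers had 804 and 340.3 CPM in the males and 975 and 513 CPM in the females, and at CT20 1296 and 2245 CPM in the males and 6709 and 3825 CPM in the females. The control livers of CT20 held 177 and 99.5 CPM in the males and 227 and 300.4 CPM in the females. At CT16 a single fasted male lay within the control range, which reached 354 CPM, and from CT20 on every fasted library was above every control library of its time. The log2 difference was 1.38 ± 0.31 (SE) at CT16 (adjusted p = 0.00062), 4.00 ± 0.34 (SE) at CT20 and 5.10 ± 0.36 (SE) at CT44 (adjusted p = 3.61e-15), a fold of 34.2. At CT44 the 4 fasted livers held 6328 and 7651 CPM in the males and 7671 and 8026 CPM in the females, and at no other time from CT20 on were they as close together. The mean over CT12 to CT44 was 3.54 ± 0.11 (SE), or 11.6-fold (adjusted p = 2.49e-29). As a share of all gene counts, the median went from 0.0228% in control to 0.274% in fasted libraries of these times. On the opposite strand, Gm10680 and Gm47528 overlap Apoa4 and held at most 548 and 89 counts in a library, against at least 2939 for Apoa4. Whether counting used the strand is not given in the sources used here.

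Apoa1, the main structural protein of HDL, and Apoa5, which promotes the hydrolysis of triglyceride, lie on either side of Apoa4 and rose by less. Over CT12 to CT44, Apoa1 ranged in control livers from 2835 to 7655 CPM with a median of 5429 CPM, and in fasted livers from 5519.7 to 13883 CPM with a median of 9286 CPM. From CT16 on, no fasted library of Apoa1 fell to the control range of its time, and the difference was called at 8 of 9 times. It averaged 0.81 ± 0.06 (SE), or 1.76-fold (adjusted p = 1.92e-15), and was largest at CT40 with 1.10 ± 0.19 (SE) (adjusted p = 8.21e-06). At that time control livers had 5275 and 5739 CPM in the males and 5223 and 4034 CPM in the females, and fasted livers 10458 and 8537 CPM in the males and 10639 and 13883 CPM in the females. At CT12 the difference was already 0.67 ± 0.19 (SE) with an adjusted p of 0.0524, and DESeq2 called it, the 1 member it called at that time.

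Apoa5 ranged from 997 to 1808 CPM with a median of 1367 CPM in control livers of CT12 to CT44, and from 1619 to 3168 CPM with a median of 2108 CPM in fasted ones. It was called at 8 of 9 times, and its mean difference was 0.61 ± 0.04 (SE), 1.53-fold (adjusted p = 3.24e-17). At CT12 the fasted livers already lay above all control livers, but the difference was not called (0.33 ± 0.13 (SE), adjusted p = 0.197). At CT20 control livers had 1393 and 997 CPM in the males and 1107 and 1257 CPM in the females, and fasted livers 1920.4 and 2262 CPM in the males and 2118 and 2016 CPM in the females. The difference was 0.81 ± 0.13 (SE) at CT20 (adjusted p = 1.36e-06), 0.46 ± 0.13 (SE) at CT28 and 0.94 ± 0.13 (SE) at CT40 (adjusted p = 5.87e-08), so that CT20 and CT40 had the largest values, and they were also the times with the lowest control means. In the fed group labelled fasted at CT8, Apoa5 was 0.26 ± 0.13 (SE) against control (adjusted p = 0.374).

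Apoc3, whose protein slows the removal of triglyceride and whose gene lies between Apoa1 and Apoa4, was not called at any of the 9 times. Control livers ranged from 827 to 1606 CPM with a median of 1175 CPM, and fasted livers from 934 to 1592 CPM with a median of 1152 CPM. The mean difference was -0.04 ± 0.04 (SE) (adjusted p = 0.425), an interval of -0.11 to 0.04 at 2 SE either way. Of the 4 genes of the cluster, 3 were thus called higher, and the interval of Apoc3 lay below all 3 of their mean differences.

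**Figure D2:**
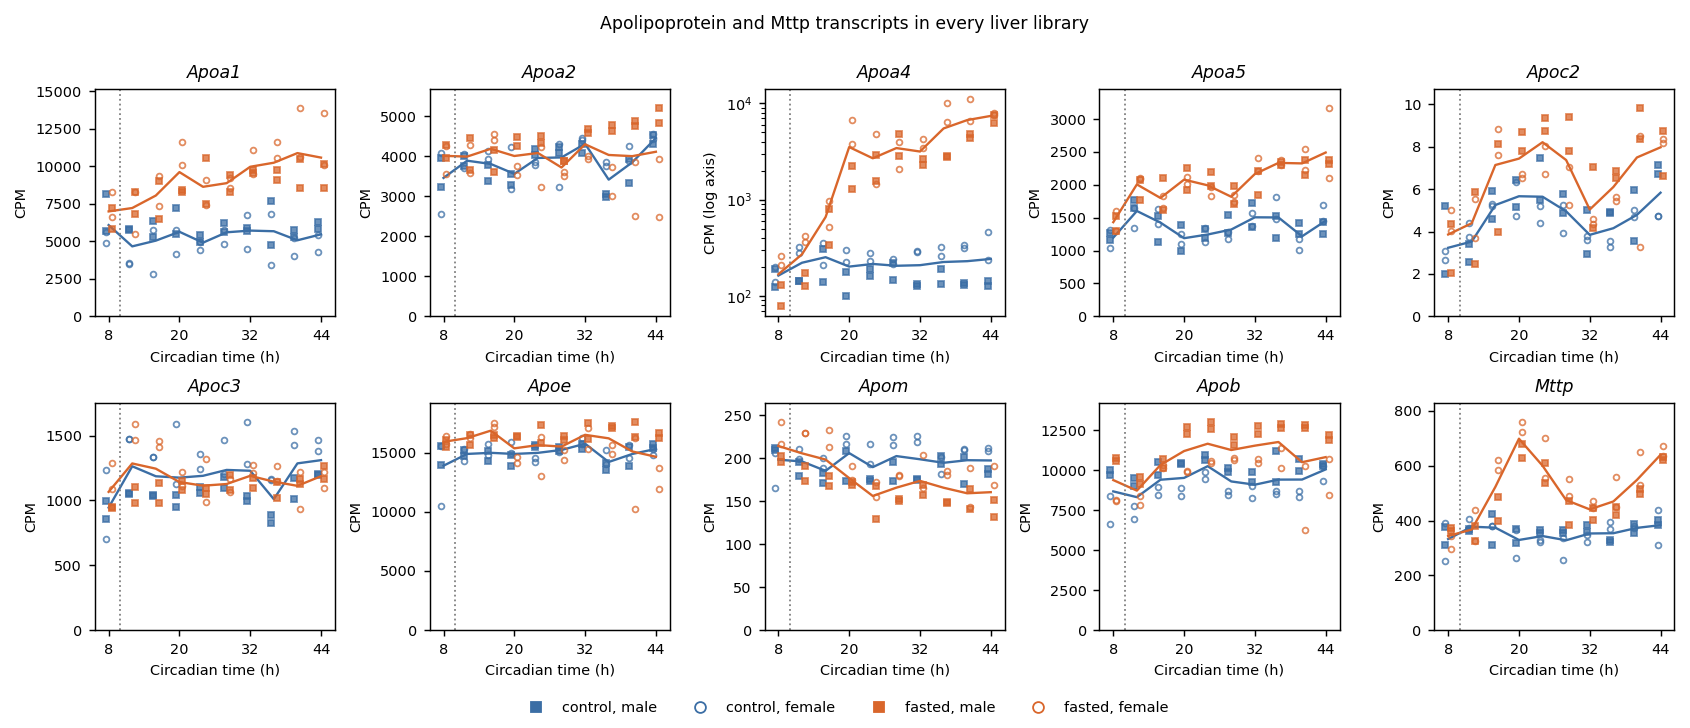
CPM of each gene (vertical axis, from 0 except for Apoa4, which has a log axis) against circadian time in h, in control (blue) and fasted (orange) livers, with squares for males, open circles for females, lines through the means of 4 and a dotted line at the removal of food. The Apoa4 points of the 2 treatments separate from CT20 on, those of Mttp do not overlap from CT20 on and are farthest apart at CT20, and those of Apoa2, Apoc3 and Apoe overlap at most times.

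Mttp, which loads lipid onto ApoB, was called higher at 7 of 9 times, by the most at CT20. At CT12 control livers held 369 and 363 CPM in the males and 406 and 372 CPM in the females and fasted livers 379.8 and 325 CPM in the males and 439 and 325 CPM in the females, with no difference called (-0.04 ± 0.12 (SE), adjusted p = 0.943). At CT20 control livers held 317 and 369.9 CPM in the males and 263 and 367 CPM in the females, and fasted livers 681 and 630.1 CPM in the males and 760.4 and 724 CPM in the females. The lowest fasted library was thus above the highest control library, and the difference was 1.08 ± 0.12 (SE), 2.12-fold (adjusted p = 1.07e-09). By CT32 the fasted livers had come down to 447 and 402 CPM in the males and 469.98 and 444 CPM in the females. They were still above the 322 to 384 CPM of control, but the difference was not called (0.32 ± 0.12 (SE), adjusted p = 0.0561). At CT44, 24 h after CT20, it was 0.74 ± 0.12 (SE) again (adjusted p = 3.02e-06), with 621 and 631 CPM in the males and 636 and 671 CPM in the females. The mean of the 9 times was 0.54 ± 0.04 (SE), 1.46-fold (adjusted p = 4.5e-16). Trmt10a, which overlaps the first part of Mttp on the opposite strand, held 84 to 312 counts in a library, against 5318 to 35919 for Mttp.

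Apob, the protein on which VLDL is built, rose by less, with a positive difference at all 9 times. Control livers ranged from 6937 to 11171 CPM with a median of 9391 CPM, fasted livers from 6257 to 13024 CPM with a median of 10686 CPM. The mean difference was 0.20 ± 0.03 (SE), or 1.15-fold (adjusted p = 2.17e-07), and it was called at CT20, CT28, CT32 and CT36. At CT32, where it was largest at 0.34 ± 0.09 (SE) (adjusted p = 0.00675), control livers had 9252 and 9871 CPM in the males and 8991 and 8264 CPM in the females, and fasted livers 12745 and 12243 CPM in the males and 10674 and 10479 CPM in the females. The treatments did not overlap at CT28 and CT32. At CT40 they did, and the fasted livers had 12837 and 12654 CPM in the males and 10259 and 6257 CPM in the females.

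Apoc2, the activator of lipoprotein lipase, had very few counts, 56 to 438 in a library, where its neighbours Apoc4 and Apoc1 had medians of 14847 and 75539. In M21 the whole of Apoc2 but its end lies inside a longer gene on the same strand, named Apoc2l in the files, at chr7:19671584-19681423. Apoc2l held at most 3 counts, and how reads shared by both genes were counted is not given in the sources used here, so the level and change of Apoc2 are uncertain. Control livers ranged from 2.56 to 7.46 CPM with a median of 4.88 CPM, and fasted livers from 2.46 to 9.82 CPM with a median of 6.94 CPM. The mean difference was 0.48 ± 0.08 (SE) (adjusted p = 3.77e-06), positive at all 9 times and called at CT40 alone (0.61 ± 0.25 (SE), adjusted p = 0.0491).

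Apoe, the ligand of remnant receptors and the member with the most counts, was not called at any time. Control livers ranged from 13497 to 16266 CPM with a median of 15157 CPM, and fasted livers from 10197 to 17591 CPM with a median of 16259.8 CPM. Its mean difference was 0.07 ± 0.03 (SE) (adjusted p = 0.0654). It was called without some of the libraries. Without fasted CT40 female 2 and CT44 female 1, which had 10197 and 11904 CPM, it was 0.09 (adjusted p = 0.00276), and without control CT8 female 2 it was 0.07 (adjusted p = 0.0289). Kupffer cells also make ApoE, and 5 of 5 of their markers were called lower in the fast (all genes 32.9%). Their summed ranges were 182 to 541 CPM in control and 118 to 390.3 CPM in fasted livers. Markers of stellate cells, cholangiocytes and lymphocytes were also called lower, 3 of 4 for each, with 0 higher. The part of Kupffer cells in the level of Apoe was not tested.

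Apoa2, the second protein of HDL, ranged from 2983 to 4562 CPM with a median of 3969 CPM in control and from 2488 to 5204 CPM with a median of 4084 CPM in fasted livers. It was called at none of the 9 times, and the mean difference was 0.04 ± 0.04 (SE) (adjusted p = 0.397), with 2 SE either way spanning -0.04 to 0.13. Apom, the carrier of sphingosine 1-phosphate, was the member that fell. At CT24 control livers held 176 and 174 CPM in the males and 193 and 216 CPM in the females, and fasted livers 168 and 129 CPM in the males and 155 and 172 CPM in the females, the 1 time at which its treatments did not overlap. The mean difference was -0.19 ± 0.03 (SE), a fold of 0.879 (adjusted p = 9.47e-08), and 6 of 9 times were called lower, all of them from CT20 on. At CT12 and CT16 it was 0.06 ± 0.08 (SE) and 0.09 ± 0.08 (SE), with adjusted p of 0.842 and 0.5.

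Taken time by time, the members called were 0 of 10 at CT12 (all genes 1.6%), 4 at CT16 (23.4%) and 6 at CT20 (36.6%). The count at CT12 was also 0 in limma-voom, and 2 members, Apoa1 and Apoa5, had an unadjusted p under 0.05. There were 5 at CT24 (24.1%), 6 at CT28 (21%), 4 at CT32 (17.7%), 6 at CT36 (26.8%), 6 at CT40 (39.9%) and 5 at CT44 (39.4%). Apoa4, Apoa1 and Apoa5 were called at every time from CT16 on. Without the males numbered 1, or those numbered 2, in every group, Apoa1 was called at 3 or 4 of 9 times and Apob at 0, while Apoa4 was called at 8 of 9 in either case. Of the 90 pairs of a member and a time from CT12, 42 were called, 36 higher and 6 lower. Over all genes 25.6% of such pairs were called, genes with few counts included. In a fit of 12929 genes with at least 10 counts in every library, 488 (CT12) to 6885 (CT40) were called at a time. With all 21187 genes these counts were 340 and 8459. The comparisons of a time share its control libraries among the genes, and the mean uses all of them. In 37 pairs the 4 fasted and 4 control libraries did not overlap, against 21.1% over all genes.

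**Figure D3:**
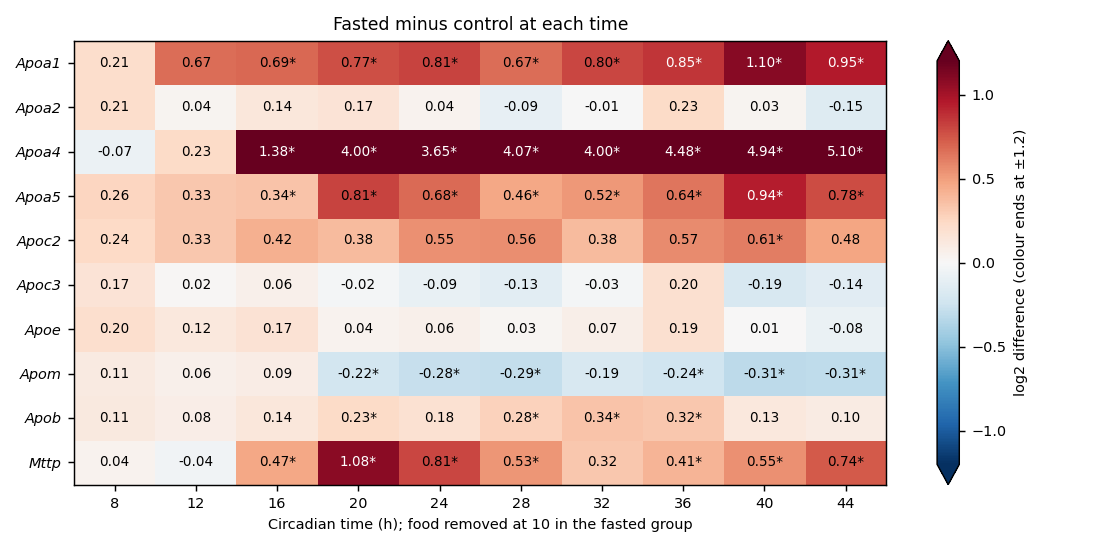
The log2 difference of fasted minus control livers, by gene (rows) and circadian time in h (columns), with red for higher and blue for lower in the fast, colours ending at ±1.2 and a star where the adjusted p was under 0.05. No star stands at CT8 or CT12, and Apoa1, Apoa4 and Apoa5 have one at each time from CT16 on, while Apom has the 6 stars of lower values.

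Did the effect of the fast differ between its first and second day? The mean of CT36, CT40 and CT44 was compared with that of CT12, CT16 and CT20, the same phases of the day before, and 3 of the 10 genes were called (all genes 21.2%). Apoa4 was higher by 2.97 ± 0.25 (SE) in the later window (adjusted p = 4.54e-12). Its fasted libraries there held 2786 to 11010.1 CPM, against 126 to 6709 CPM in the earlier one. The earlier window includes the onset, with differences of 0.23 at CT12 and 1.38 at CT16, against 4.48 at CT36 and 4.94 at CT40. At CT20 and CT44 the difference was 4.00 and 5.10, and from CT20 to CT32 it stayed between 3.65 and 4.07. For Apom the later window minus the earlier one was -0.26 ± 0.07 (SE) (adjusted p = 0.00393). Its difference was 0.06 at CT12 and 0.09 at CT16, before it fell, and -0.22 at CT20 against -0.31 at CT44. For Apoa5 the difference was 0.30 ± 0.10 (SE) (adjusted p = 0.0327), but without fasted CT40 female 2 and CT44 female 1 its adjusted p was 0.0565. The other 7 lay between -0.08 and 0.26 and were not called, among them Apoa1 and Mttp.

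The sexes differed in fed livers for 5 of the 10 genes (all genes 39.2%). Over the 20 control libraries of each sex, the lowest, median and highest levels of Apoa4 were 99.5, 142 and 304 CPM in males and 139, 277 and 460.1 CPM in females. The female livers thus held more, by 0.80 ± 0.14 (SE) (adjusted p = 5.03e-06). Apoc3 was also higher in females, with 699, 1347 and 1606 CPM against 827, 1042 and 1200.3 CPM in males (0.35 ± 0.05 (SE), adjusted p = 1.97e-07). Apom differed in the same direction by 0.14 ± 0.04 (SE) (adjusted p = 0.0016). Several of the lowest female values, 699 CPM of Apoc3 and 6610.3 CPM of Apob among them, came from control CT8 female 2, and all 5 differences were also called without it. Apob and Apoa1 were lower in females. Apob had 6610.3, 8611 and 10233 CPM in females and 9036, 10076 and 11171 CPM in males (-0.24 ± 0.04 (SE), adjusted p = 8.57e-06). Apoa1 differed by -0.31 ± 0.08 (SE) (adjusted p = 0.00265).

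The response to the fast differed between the sexes for 4 genes (all genes 12.4%). Apoa1 rose by 1.03 ± 0.09 (SE) in females and 0.59 ± 0.09 (SE) in males. The difference of 0.44 ± 0.13 (SE) (adjusted p = 0.0149) had the same sign at 9 of 9 times. At CT8, with both groups still fed, Apoa1 already showed a gap of 0.56, from -0.06 in males to 0.50 in females, which was not tested. Its control livers had lowest, median and highest levels of 2835, 4654 and 6824 CPM in females and 4758, 5760.2 and 7655 CPM in males. In the fast they were 5519.7, 9790.1 and 13883 CPM in females and 6477, 8768 and 10539.9 CPM in males, so that the order of the medians was turned. Mttp rose by 0.66 ± 0.06 (SE) in females and 0.42 ± 0.06 (SE) in males (difference 0.23 ± 0.08 (SE), adjusted p = 0.0455), and the difference was not called without the 2 libraries named above (adjusted p = 0.0844).

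For Apoa2 and Apoc3 the estimates of the sexes had opposite signs, and the mean over both was not called. Apoa2 changed by 0.21 ± 0.06 (SE) in males (adjusted p = 0.00288) and by -0.13 ± 0.06 (SE) in females (adjusted p = 0.0641), a difference of -0.34 ± 0.08 (SE) (adjusted p = 0.00571). Its fasted males had 3614, 4492 and 5204 CPM as lowest, median and highest, and its fasted females 2488, 3745 and 4552 CPM. Among fasted livers the gap in level was widest at CT44, with 5204 and 4821 CPM in the males and 2488 and 3934 CPM in the females. The female minus male difference of the fasting effect was widest at CT36, at -0.82, and was -0.70 at CT44. Apoc3 changed by -0.16 ± 0.05 (SE) in females (adjusted p = 0.01) and by 0.09 ± 0.05 (SE) in males (adjusted p = 0.19). The difference was -0.24 ± 0.07 (SE) (adjusted p = 0.0263). Apoe had estimates of 0.15 ± 0.05 (SE) in males and -0.01 ± 0.05 (SE) in females, and their difference was not called (-0.16 ± 0.06 (SE), adjusted p = 0.0983). For Apoa4, the gene with the largest rise, the sexes differed by -0.12 ± 0.20 (SE) (adjusted p = 0.796). With the males numbered 1, or those numbered 2, left out of every group, a lone male remained in each. The difference between the sexes was then 0.51 or 0.39 for Apoa1 and -0.28 or -0.38 for Apoa2. It was -0.26 or -0.21 for Apoc3 and 0.28 or 0.20 for Mttp. These differences were no longer called, and far fewer of all genes were called too.

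**Figure D4:**
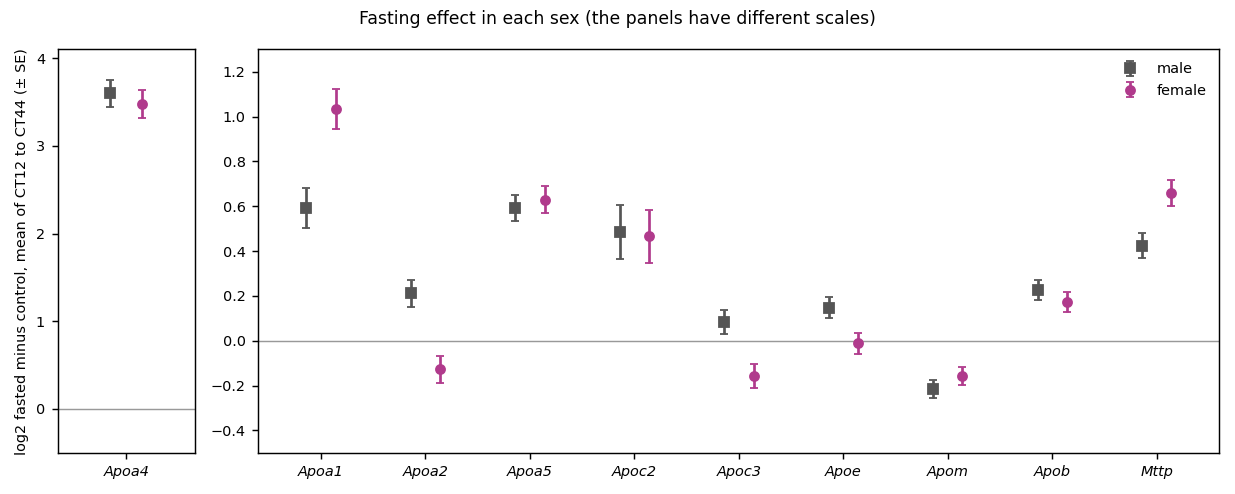
The log2 difference of fasted minus control livers, averaged over CT12 to CT44, in males (squares) and females (circles) with SE bars, for Apoa4 (left panel) and the other genes (right panel, on its own scale). The female value is above the male one by more than the bars for Apoa1 and Mttp and below it for Apoa2, Apoc3 and Apoe, of which the difference of Apoe was not called.

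In constant darkness with food present, 2 of the 10 genes had a 24 h rhythm (all genes 43.8%). Apob peaked at CT22.2 with a peak-to-trough size of 0.20 on the log2 scale (adjusted p = 0.00675). Apoc2 peaked at CT21.4 with a size of 0.73 (adjusted p = 6.77e-05), within the limits of its counts. The sizes fitted for the other 8 lay between 0.03 (Apom) and 0.25 (Apoa4) and were not called. Apoa5 had a fitted size of 0.23 with a peak at CT11.9 (adjusted p = 0.153), and without CT8 its adjusted p was 0.0452. The fitted size of Mttp was 0.18, and 0.29 without the males numbered 1. A link of motifs to rhythms was not tested.

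The rhythm differed between fasted and control livers for 2 genes (all genes 23%), in a fit with a linear change over time for each treatment. For Mttp the size was 0.16 in control and 0.69 in fasted livers, with the fasted peak at CT21.3 (adjusted p = 1.69e-05). The fasted levels given above, high at CT20 and CT44 and lower at CT32, show this shape. The fit includes the onset of the fast, with differences of -0.04 at CT12 and 0.47 at CT16. Time of day and hours without food run together in fasted livers. A 24 h rhythm of Mttp and its course over the fast thus cannot be told apart. For Apoa4 the sizes were 0.16 and 1.44, with a fasted peak at CT23.8 (adjusted p = 0.0137). The call for Apoa4 was not made when the linear change was left out (adjusted p = 0.675), so that its steep rise and its rhythm cannot be told apart here. For Apoc2, which rose in the mean, no difference was called, with sizes of 0.66 and 0.68 and peaks at CT21.7 and CT21.9 (adjusted p = 0.991).

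The table of exon bins, in which each gene is split into stretches without stated coordinates, was tested for bins that changed relative to the other bins of their gene. A change was called for 5 of the 10 genes, Apoe, Apoa2, Apoa5, Mttp and Apoc3 (all genes 14.3%). The bins called were small ones. Apoa5 bin 001 took 0.484% ± 0.0949 (SD, n = 36) of the gene's bin counts in control and 0.62% ± 0.1 (SD, n = 36) in fasted livers, and this was the largest share among the bins called. The 6 bins called in Apoe took 0.176% of its counts together in control livers and were all lower in the fast, relative to the rest of the gene. The 4 in Apoa2 took 0.151% and were all higher, the 2 in Mttp 0.242% and were lower, and the 1 in Apoc3 0.17% and was higher. No bin was called in Apob, Apoa1, Apoa4, Apom or Apoc2. In Mttp, bins 020 to 024 held 6.5 to 39.6 counts on average in control livers, and bin 019 held 764. Whether these bins belong to the start site shown for Mttp was not tested.

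Other genes of lipoprotein traffic were read from 6 lists. Of 16 genes of VLDL loading and secretion, 6 were higher and 5 lower, with a median of 0.02, and 68.8% called is close to the 62.5% of all genes. The largest rises were those of Dgat1, an enzyme of triglyceride synthesis (0.67 ± 0.03), and of Mia3 and Mia2, which help large cargo to leave the endoplasmic reticulum (0.44 ± 0.03 and 0.32 ± 0.03). The largest falls were those of Sort1, a sorting receptor that binds ApoB (-0.84 ± 0.07), Aadac, a lipid hydrolase (-0.58 ± 0.05), and Dgat2 (-0.50 ± 0.04). All these values are mean log2 differences ± SE. Among 4 genes of the editing of Apob mRNA, Apobec1, the deaminase, fell by 0.36 and Rbm47 by 0.20, while A1cf, its cofactor, rose (0.22 ± 0.06). Of the 8 other apolipoproteins, 3 were called higher, led by Apoc4 (0.29 ± 0.03) and Apoh (0.20 ± 0.02). As many as 3 were lower, led by Apoc1 (-0.22 ± 0.04), and Apod was near 0 CPM throughout. Over all genes 29.5% were called higher and 32.9% lower.

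All 14 genes of lipases, HDL and triglyceride clearance were called, 6 higher and 8 lower, with a median of -0.21. Over all genes 62.5% were called, 29.5% higher and 32.9% lower. Angptl4, whose protein inhibits lipoprotein lipase, rose by 2.33 ± 0.15, and Angptl8, whose protein takes part in the same inhibition, fell by 3.46 ± 0.16. Abcg8, a sterol exporter, rose by 0.73 ± 0.06 and Lipg, endothelial lipase, by 0.50 ± 0.14, whereas Lpl fell by 0.83 ± 0.12 and Lipc, hepatic lipase, by 0.46 ± 0.06. Of 10 receptors and their partners, 5 were lower (all genes 32.9%) and 3 higher (all genes 29.5%), with a median of -0.17. Lsr, a receptor of remnants, fell by 0.82 ± 0.04. Mylip, a ubiquitin ligase, rose by 0.94 ± 0.04, as did Vldlr (0.33 ± 0.14) and Scarb1, the HDL receptor (0.23 ± 0.04).

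Of 15 transcription factors known from these genes, 8 were higher (all genes 29.5%) and 6 lower (all genes 32.9%), with a median of 0.18. Ppargc1a, a coactivator of fasting genes, rose by 1.73 ± 0.12, the clock repressor gene Nr1d1 by 0.96 ± 0.11 and Creb3l3, a liver factor of triglyceride genes, by 0.78 ± 0.04. Srebf1 fell by 3.13 ± 0.10, Mlxipl, the carbohydrate-response factor, by 1.22 ± 0.06 and Srebf2 by 0.61 ± 0.04.

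**Figure D5:**
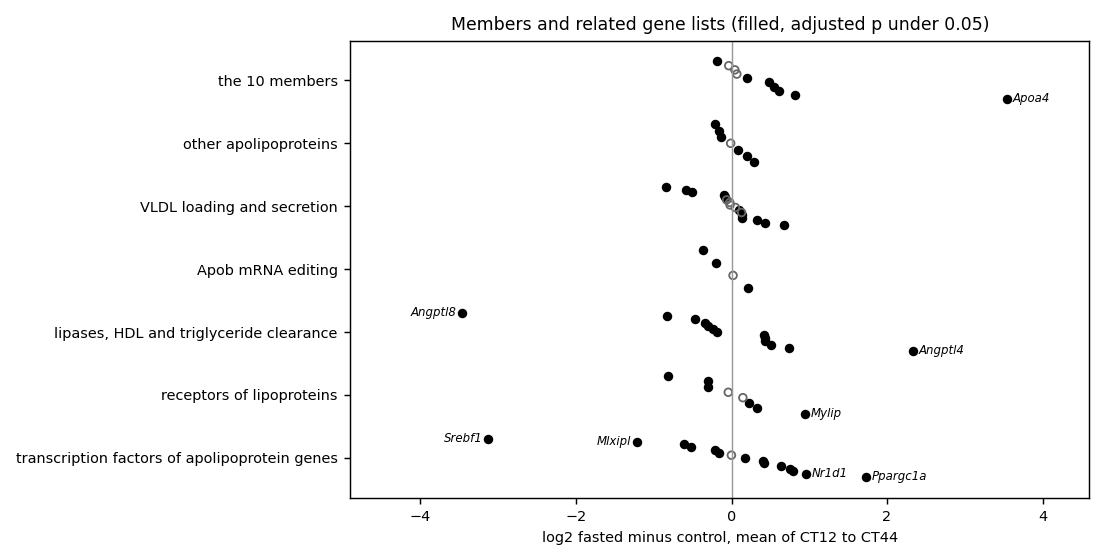
Mean log2 difference of fasted minus control livers over CT12 to CT44 (horizontal axis) for the 10 genes and 6 lists of related genes (rows), 1 point a gene, filled where the adjusted p was under 0.05, with names beyond 0.9 either way. Apod, near 0 CPM, and the genes not reported are not drawn. Apoa4 at 3.54 is the highest point, and Angptl8 at -3.46 the lowest of those drawn.

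The genes most like each member over the 20 group means of log2 CPM were sought among 11566 genes with a mean log2 CPM of at least 1. The points share their libraries, so the correlations are descriptions. Apoa4 was followed most closely by Hsd17b10, a mitochondrial dehydrogenase (r = 0.99), and Hprt1, an enzyme of purine salvage (r = 0.99). For Apoa1 they were Cyp4a32 (r = 0.98) and Cyp4a31 (r = 0.97), which are near-identical cytochromes of fatty acid hydroxylation, and for Mttp they were Acot2, an acyl-CoA thioesterase (r = 0.97), and Scyl2 (r = 0.97). Apoa5 was most like Farp2 (r = 0.96) and Cdip1 (r = 0.96), and Apob most like Ldha (r = 0.95) and its pseudogene Ldha-ps2 (r = 0.96), which can share reads. Apoc2 went with Urml (r = 0.97) and Insig2, a brake on sterol synthesis (r = 0.96), and Apom with Ces1f, a carboxylesterase (r = 0.95), and Fmn1 (r = 0.95). The 3 members not called had looser partners: Cyp2c37 (r = 0.80) and Pon1 (r = 0.75) for Apoa2, Ndufa2 (r = 0.84) and Uqcrq (r = 0.80), subunits of the respiratory chain, for Apoc3, and Inhca (r = 0.81) and Jtb (r = 0.71) for Apoe.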

How the data were processed

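RNA of 80 mouse livers was read as polyadenylated, strand-marked libraries, from both ends with 76 cycles each. The authors deposited raw counts per gene and raw counts per exon bin, whole numbers without normalization, and both tables were used as deposited. The deposited normalized signal was not used. The submitters' processing notes name Trimmomatic, HISAT2, DESeq2 and GRCm39, and versions and the counting program are not given in the sources used here. Groups came from the titles. The article is a review without methods, so the tests were chosen for counts.

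After filterByExpr had removed genes with low counts, a quasi-likelihood model in edgeR 4.0.16 (R 4.3.3), scaled by TMM, gave every combination of sex, time and treatment its own mean over the 80 libraries. Contrasts were fasted minus control over CT12 to CT44, at each time, late minus early, and between sexes. Rhythms were tested with a cosine and a sine of 24 h and sex, over 40 control libraries or, for the difference, over the 72 of CT12 to CT44 with a linear change for each treatment. Exon bins were tested with diffSpliceDGE and Simes' method. Between 8.28% and 25.9% of an exon column fell on rows naming no exon, which were left out, and 3 columns of fasted CT40 were matched best by another library of that group, so that fasted CT40 had no sex there. All 10 genes passed the filter in both tables. Adjusted p-values are those of Benjamini and Hochberg over all genes tested. A prior count of 2 was added for log2 values of single libraries. Exonic lengths came from GENCODE M21, as the merged exons of all transcripts of a gene. All tests were tried on simulated data. The labels do not say whether the mice of a group shared a cage, so p-values measure the spread between these samples. Counts were lowest, and counting error largest, for Apoc2.

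The 10 genes and the related lists were chosen with earlier results of these data known. From each list up to 3 genes higher and 3 lower were named by the size of the mean effect among those called, and for each member the 2 genes most like it. Apod was named after its values were seen. Some genes of the lists, though counted, are not reported here. The alternatives were other scalings, filters and tests (DESeq2 1.42.0, limma-voom of limma 3.58.1), single sexes, replicate numbers as a block, left-out replicates and libraries, and, for rhythms, a 12 h harmonic, the linear change and CT8.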

Additional observations from a re-analysis of the deposited data

Results flagged for a closer look

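Within each treatment and time, the 4 libraries were compared for a value far from the other 3, by Dixon's ratio of its gap to the range. The ratios were taken on log2 CPM, whereas the levels beside them are in CPM. Of 200 groups of 4, 6 were past the 95% critical value, where chance gives about 1 in 20. Apoe in fasted CT40 female 2 had 10197 CPM against 16248 to 17591 in the others (ratio 0.854), and Apoc2 in the same library 3.28 against 8.37 to 9.82 CPM (ratio 0.854). That library had 26820667 counts, the fewest of the 36 fasted ones, and 118 CPM of Kupffer cell markers, the lowest sum. Their part in its values was not tested. Apom was lowest in control CT8 female 2, the library rich in ribosomal RNA, with 166.0 against 206 to 212 CPM (ratio 0.892). The other ratios were 0.852 for Apoa1 in fasted CT32 female 2, which was highest with 11092 CPM, 0.904 for Apoa5 in fasted CT12 male 2, lowest with 1775 CPM, and 0.873 for Apob in control CT44 female 2, lowest with 9309.5 CPM.

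The fasting effect differed between females and males, by a test of the difference itself, for Apoa1 (0.44), Apoa2 (-0.34), Apoc3 (-0.24) and Mttp (0.23), as female minus male log2 differences. It differed between the later and the earlier window for Apoa4 (2.97), Apoa5 (0.30) and Apom (-0.26). The fitted 24 h rhythm differed between treatments for Mttp (adjusted p = 1.69e-05) and Apoa4 (adjusted p = 0.0137), where it cannot be told apart from the course of the fast.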

How the results depend on the processing

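The mean fasting effect was called for 7 of the 10 genes, and for 7 to 10 under the alternatives, the 10 with males alone. With males alone 10354 of all 19716 genes tested were called, against 13233 of 21187 with both sexes. Apoe was the gene that changed side most often: its adjusted p was 0.0109 in DESeq2, 0.0298 with DESeq2's size factors and 0.035 with upper-quartile scaling. Directions turned only between sexes: with females alone Apoa2 was -0.12 and Apoe -0.009997, and with males alone Apoc3 was 0.0859. With females alone, 25 of 90 pairs of a gene and a time were called in place of 42, and 1 gene in place of 3 between windows. Over all genes, females alone gave 142 (CT12) to 6879 (CT40) of 20618 called at a time, in place of 340 to 8459 of 21187. Between windows they gave 2717 in place of 4483. Without the filter on low counts, 2 genes in place of 4 differed in their response between sexes and 1 in place of 2 had a control rhythm. Over all genes these counts were 2776 of 45359 in place of 2621 of 21187, and 8509 of 42086 in place of 8369 of 19126. Without the linear change, 1 in place of 2 differed in rhythm, and over all 19929 genes 4090 in place of 4580. The cause of these shifts was not tested.

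With each replicate number of each sex left out in turn, which leaves a lone mouse of that sex in each group, or with single libraries left out, 7 to 8 genes were called in the mean, 23 to 45 pairs at single times, and 0 to 3 genes at CT8, where the 3 were Apoa2, Apoc3 and Apoe and control CT8 female 2 was the lone control female. The counts were 1 to 3 between windows, 0 to 4 between the sexes in the fast, 3 to 5 between the sexes in control, 1 to 3 for the control rhythm, 1 to 3 for the rhythm difference and 3 to 5 for exon usage. Of the 9 times, Apoa1 was called at 3 to 9, Apob at 0 to 6, Apom at 1 to 6, Mttp at 4 to 8, Apoa5 at 6 to 8 and Apoa4 at 8. The number of all genes called moved in these fits too. It rose at CT8 without the females numbered 1, and fell at every time from CT12 on without the males numbered 1 or 2. The counts of members called therefore cannot tell a shift of the members from a shift of all genes. Apoa4 kept its call between windows in each of these fits. Apoa5 lost it without the females numbered 1 or 2 or the males numbered 1, and Apom without the females numbered 2 or the males numbered 1 or 2. The control rhythm of Apob was not called without the females numbered 1 or the males numbered 2, and the rhythm difference of Apoa4 not without the females numbered 1 or the males numbered 1 or 2. In control livers the sex differences of Apoa1 and Apom were not called without the males numbered 2.

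Replicate numbers do not pair the mice: over 20 pairs of same-numbered libraries, the correlation of their deviations from the group means ran from -0.15 to 0.50, with 5 above 0.1. With the replicate block the counts were 7 in the mean, 41 at single times, 0 at CT8, 3 between windows, 4 and 5 between sexes, 2 and 2 for rhythms and 5 for exon usage. Leaving out the 2 fasted female libraries, and leaving the members out of the scaling (7 called in the mean), were chosen after seeing the data. Of the values of the summary counts under the alternatives, 100 stayed within 1.5 times the reported count, 17 were lower and 1 was higher by more. Each group held 2 mice of a sex, and Apoc2 is limited by its counts.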
